A study of Mus musculus with 6 samples.

Results

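The glycolytic enzymes were examined by the signals of their probe sets in brain tissue of Dap12 knockout and heterozygous mice. Dap12, encoded by Tyrobp, is a signalling adaptor that microglia, the brain's own macrophages, use. The enzymes were 10 genes listed by name: Hk1, Gpi1, Pfkp, Pfkm, Aldoa, Tpi1, Pgk1, Eno2, Pkm and Ldhb. Every probe set whose only gene symbol in the platform annotation was one of these was taken, without regard to its signal. This gave 23 of the 45037 probe sets, and they covered 9 of the 10 genes. Gpi1, which encodes glucose-6-phosphate isomerase, was not analysed here because no probe set carried its symbol alone.

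There were 6 one-colour Affymetrix arrays of total RNA, 3 from Dap12-ko brains (named 67, 68 and Ko1) and 3 from Dap12-het brains (75, 76 and 81), all at 1 month of age. The design gives the tissue as midbrain with diencephalon and basal ganglia, and the sample source reads Dap12-deficient for both genotypes, so the heterozygous arrays are animals with 1 disrupted copy and not wild type. The labels name no strain, sex or allele design and do not say whether each array came from its own animal, so each p-value reflects only how these arrays spread, which may be technical. In RNA from whole tissue, fewer cells of a type and less RNA per cell cannot be told apart.

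Glycolysis splits glucose into pyruvate and yields ATP without oxygen. Hexokinase traps glucose as its phosphate, phosphofructokinase sets much of the pace, and the later enzymes recover ATP and NADH before lactate dehydrogenase exchanges pyruvate with lactate. In brain, Hk1 is the main hexokinase, Eno2 is the enolase of neurons, and Ldhb builds the heart-type lactate dehydrogenase subunit that is prominent in neurons. Many of these genes are classic targets of the hypoxia-inducible factors, which bind DNA at a short core, for which the letters ACGTG were searched here.

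The promoters of the pair of enzymes with a call, Pgk1 and Ldhb, are shown for the letters ACGTG. The first window holds them and the second does not. Other forms of the core were not searched, GCGTG among them, and the Ldhb window holds GCGTG. The windows therefore do not show that Ldhb lacks the core. The windows run from 250 bases before to 50 after the annotated start, 5′ to 3′ on the gene's strand, and come from RefSeq on GRCm38.p6. Pgk1 lies at chrX:106186850-106187149 on the plus strand and Ldhb at chr6:142507908-142508207 on the minus strand. Capitals mark ACGTG or its reverse complement CACGT.
Pgk1: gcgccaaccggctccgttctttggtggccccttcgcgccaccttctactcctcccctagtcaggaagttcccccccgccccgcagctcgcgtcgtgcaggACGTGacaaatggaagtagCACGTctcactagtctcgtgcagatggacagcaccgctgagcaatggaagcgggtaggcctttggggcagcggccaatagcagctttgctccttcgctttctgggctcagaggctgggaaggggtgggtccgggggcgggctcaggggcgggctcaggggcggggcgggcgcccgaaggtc
Ldhb: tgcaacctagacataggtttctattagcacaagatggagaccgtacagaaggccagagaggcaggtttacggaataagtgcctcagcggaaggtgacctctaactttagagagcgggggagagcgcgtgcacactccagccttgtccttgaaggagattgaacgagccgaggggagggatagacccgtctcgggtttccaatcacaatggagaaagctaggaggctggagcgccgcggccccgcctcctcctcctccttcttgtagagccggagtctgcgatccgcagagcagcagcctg
In Pgk1 the motif starts at bases 101 and 120 of the window. Of 17 windows listed for the 10 enzymes, 7 held it (Hk1, Pfkm, Aldoa, Pgk1 and Pkm, in at least 1 window each), against 19.6% of all 32851 windows in the table. A palindrome CACGTG counts on both strands, and windows of 1 gene can overlap. A match is a description of these letters only.

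Array-wide values set the frame. Tyrobp fell, with signals of 2.28, 23.7 and 12.9 on knockout 67, 68 and Ko1 against 70.7, 68.2 and 77.6 on heterozygous 75, 76 and 81. Its log2 change was -1.68 ± 0.34 (limma adjusted p = 0.0461), and leaving out any array but Ko1 ended that call. The position of its probe set relative to the disrupted part of the gene was not examined. Across all 22518 probe sets tested, 2.07% were called at an adjusted p of 0.05, 1.32% higher and 0.751% lower on knockout arrays. Median signals were 24.6 to 40.3 on the knockout arrays and 20.3 to 21.9 on the heterozygous arrays. The mean of 9 spiked bacterial and phage controls was 4660 to 10552 against 1543 to 1661. Knockout Ko1 and heterozygous 81 stood apart in Drd1 and Slc6a3, from a list of 8 regional markers. Drd1, a dopamine receptor of the striatum, read 805 and 656 on them against 50.7 to 113 on the other 4 arrays. Slc6a3, the transporter of dopamine neurons, read 6.45 and 12.9 against 205 to 395. The summed signal of the 7 regional markers measured did not set this pair of arrays apart, at 2130 and 2389 against 1738 to 2327. The other markers of that list are not given singly here, so Drd1 and Slc6a3 do not speak for the list. Where a call changed without Ko1, the value is given below. Each call gained in this way by an enzyme of the list also held without Ko1 and heterozygous 81 together. That setting leaves out Ko1 too and was chosen after seeing the data, so it is no separate support for these calls.

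As a group, the glycolytic enzymes were neither higher nor lower on the knockout arrays with the deposited scaling. All 23 probe sets passed the filter on level and were tested, with 11 changes above 0 and 12 below, and a median log2 change of -0.02, against 0.00 over all probe sets tested. Of these, 1 rose, in Pgk1, and 1 fell, in Ldhb, or 8.70% of the 23 against 2.07% of all. Changes smaller than 0.5 on the log2 scale were found for 16 probe sets (69.6%, against 68.4% of all), and 8 reached an unadjusted p under 0.05 (limma, against 21.2% of all). The groups did not overlap for 9 of the 23 (39.1%), with the knockout arrays above for 4 and below for 5. The same held for 27.7% of all probe sets, 15.1% above and 12.5% below. On the brightest probe set of each gene, 1 of 9 enzymes was called, against 1.43% of 11446 genes. The enzymes were listed with earlier results of these data known, and several probe sets share a gene. The shares of the 23 are therefore descriptions and not a test of the group.

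**Figure D1:**
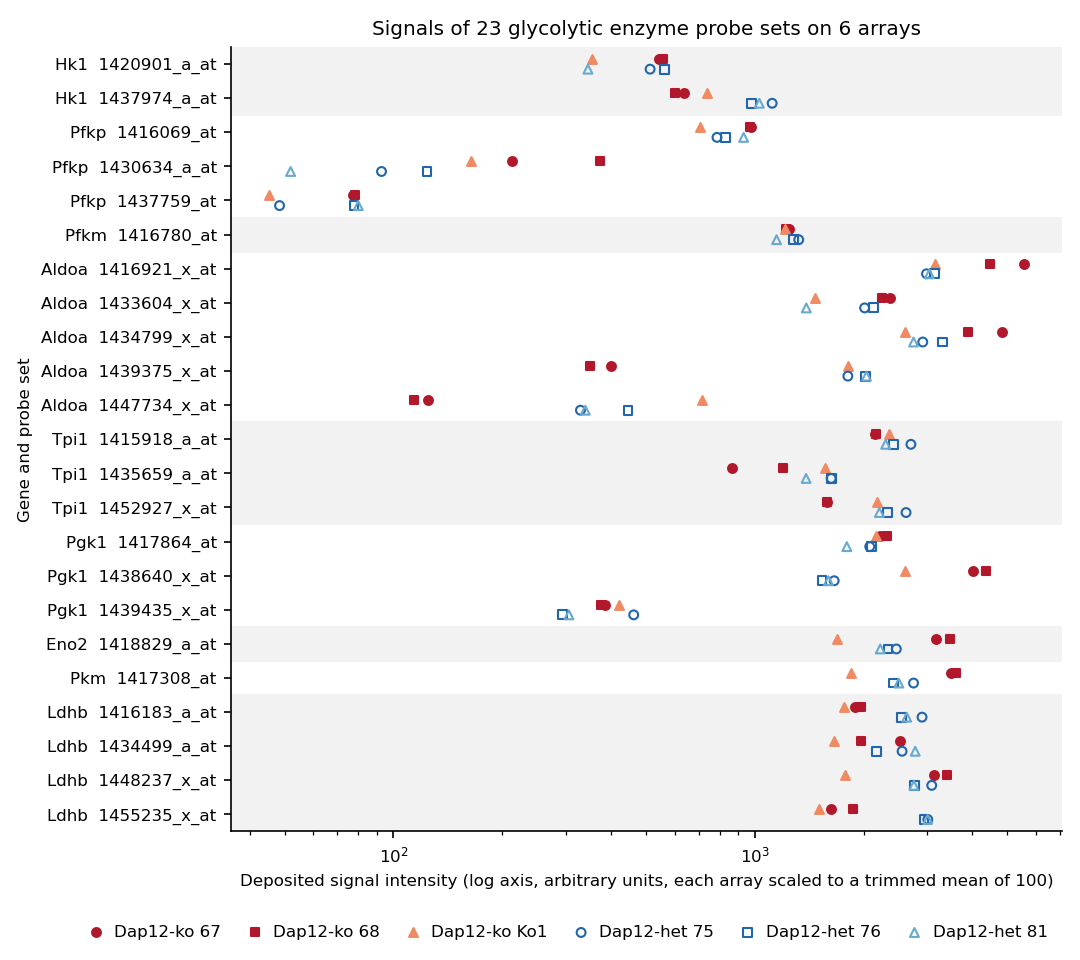
Deposited signal of each of the 23 probe sets on each array, on a log axis. Filled red and orange marks are the 3 knockout arrays and open blue marks the 3 heterozygous arrays. Most rows mix the groups; Pgk1 1438640_x_at reads 2607 to 4348 on knockout against 1534 to 1657 on heterozygous arrays, and Ldhb 1455235_x_at reads 1502 to 1868 against 2938 to 3010.

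The upper part of the pathway was mostly level, with 1 probe set apart for Hk1 and for Pfkp. Hk1, the hexokinase bound to mitochondria, had 2 probe sets. On 1437974_a_at it read 635, 600 and 735 on knockout 67, 68 and Ko1 against 1116, 979 and 1029 on heterozygous 75, 76 and 81. All knockout arrays lay below all heterozygous ones, with a log2 change of -0.65 ± 0.17 that did not pass the threshold (limma adjusted p = 0.0811) but did without Ko1 (-0.74, adjusted p = 0.0067). On 1420901_a_at the same gene read 485 ± 114 against 474 ± 114 (SD, n = 3), and the groups overlapped (0.03 ± 0.26, and -0.37 with arrays centred on their medians).

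Phosphofructokinase, the enzyme that commits sugar to glycolysis, is a tetramer of muscle (Pfkm), platelet (Pfkp) and liver (Pfkl) subunits. Pfkm was the steadiest of the enzymes over the knockout arrays, at 1242, 1221 and 1213 on 67, 68 and Ko1, against 1322, 1278 and 1148 on 75, 76 and 81. Its groups overlapped, and its log2 change was -0.02 ± 0.15 with the deposited scaling, 0.01 with quantile normalization and -0.43 with centred arrays. Pfkp gave different answers on its 3 probe sets. On 1430634_a_at it read 212, 372 and 163 on the knockout arrays against 92.7, 124 and 51.9 on the heterozygous ones, with no overlap and a log2 change of 1.32 ± 0.35 (limma adjusted p = 0.0891), called without Ko1 (1.56, adjusted p = 0.015). On 1416069_at it read 883 ± 155 against 848 ± 74.7, and on 1437759_at 66.9 ± 18.8 against 68.7 ± 17.6 (SD, n = 3). Both of these overlapped, with log2 changes of 0.05 ± 0.19 and -0.04 ± 0.27.

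Aldoa, the aldolase that splits the 6-carbon sugar, varied most within a gene, and its 5 probe sets did not move together. On 1439375_x_at it read 400, 349 and 1804 on knockout 67, 68 and Ko1 against 1808, 2028 and 2036 on heterozygous 75, 76 and 81. Knockout 67 and 68 were thus far below every other array, while Ko1 lay just under the heterozygous range. The log2 change was -1.60 ± 0.53 (limma adjusted p = 0.138), made up of -2.24, -2.43 and -0.11 on the single knockout arrays. Without Ko1 it was called lower (-2.34, limma adjusted p = 0.0001), and without 67 and 68 it was -0.11. On 1447734_x_at the split was wider, with 124 and 114 on knockout 67 and 68, 715 on Ko1 and 329, 446 and 339 on the heterozygous arrays (-0.69 ± 0.58, adjusted p = 0.529). On this probe set Ko1 was the highest of the 6 arrays and 67 and 68 the lowest. Without Ko1 it was called lower (-1.51, limma adjusted p = 0.002), and without 67 and 68 the change was 0.93.

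The other 3 Aldoa probe sets went the other way on knockout 67 and 68. Probe set 1416921_x_at gave 5563, 4476 and 3147 on the knockout arrays against 2985, 3133 and 3040 on the heterozygous arrays. The groups did not overlap, but Ko1 was above the highest heterozygous array by a small margin (0.49 ± 0.21, limma adjusted p = 0.227, and 0.11 with quantile normalization), and without Ko1 the probe set was called higher (0.71, adjusted p = 0.0053). On 1434799_x_at and 1433604_x_at the log2 changes were 0.30 ± 0.23 and 0.13 ± 0.24, with overlapping groups, and both took the other sign under the common shift of centred arrays (-0.11 and -0.27). The first was called without Ko1 (0.54, limma adjusted p = 0.0209). All 5 carry the suffix that marks probes able to match other sequences, and RefSeq lists 5 genes or pseudogenes named after Aldoa. What each probe set matches was not tested. Aldoa and Gpi1 lie on chromosome 7, as Tyrobp does, with 1087 and 83 protein-coding genes between them and it in the RefSeq table (GRCm38.p6).

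Tpi1, which interconverts the triose phosphates, had changes below 0 on all 3 of its probe sets. On 1452927_x_at it read 1586, 1580 and 2180 on knockout 67, 68 and Ko1 against 2620, 2332 and 2210 on heterozygous 75, 76 and 81. The groups did not overlap, although Ko1 was close to heterozygous 81 (-0.43 ± 0.18, limma adjusted p = 0.218). On 1435659_a_at and 1415918_a_at the changes were -0.39 ± 0.23 and -0.15 ± 0.15, and none of the 3 passed. Without Ko1, 1452927_x_at (-0.58, limma adjusted p = 0.0106) and 1435659_a_at (-0.59, adjusted p = 0.0338) were called lower. Without knockout 67 and 68, 1435659_a_at took the other sign (0.02).

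Pgk1, the X-linked phosphoglycerate kinase that makes the first ATP of the pathway, rose on 1 of its 3 probe sets. On 1438640_x_at the signals were 4014, 4348 and 2607 on knockout 67, 68 and Ko1 against 1657, 1534 and 1598 on heterozygous 75, 76 and 81. Every knockout array was above every heterozygous one, and Ko1 lay between the other knockouts and the heterozygous arrays. The mean was 3656 ± 924 against 1597 ± 61.6 (SD, n = 3), a ratio of 2.29 and a log2 change of 1.15 ± 0.21 (limma adjusted p = 0.0379; two-sided exact permutation p = 0.1, below which 3 against 3 arrays cannot go). On 1417864_at, a probe set without that suffix, the signals were 2216, 2318 and 2169 against 2079, 2097 and 1796, higher on every knockout array but by a log2 change of only 0.17 ± 0.15 (adjusted p = 0.552). On 1439435_x_at they overlapped (0.18 ± 0.22). With centred arrays these last 2 probe sets read -0.23 each, by the same shift of -0.40 that centring gave every probe set. RefSeq lists 3 pseudogenes or related sequences named after Pgk1. Leaving out any array but Ko1 ended the call (1.01 to 1.18, limma adjusted p from 0.114 to 0.182), as did quantile normalization (1.00, at 0.0662) and centred arrays (0.75, at 0.0618). It also ended when dim probe sets were kept in the fit (0.0834) or the spread was not fitted to level (0.0652).

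Eno2 and Pkm, the enzymes that form phosphoenolpyruvate and turn it into pyruvate, showed one and the same split of the knockout arrays. Eno2 read 3161, 3463 and 1686 on knockout 67, 68 and Ko1 against 2463, 2335 and 2223 on heterozygous 75, 76 and 81. Pkm read 3480, 3611 and 1842 against 2748, 2422 and 2502. For both genes 67 and 68 were above every heterozygous array and Ko1 was below every one. The same order was seen on Pfkp 1416069_at, Aldoa 1434799_x_at and Ldhb 1448237_x_at. The mean changes were therefore near 0, at 0.18 ± 0.26 for Eno2 and 0.16 ± 0.25 for Pkm (limma adjusted p = 0.736 and 0.76), and they changed sign with quantile normalization (-0.03 and -0.07), with centred arrays (-0.23 and -0.24) and without knockout 67 and 68 (-0.47 for both). Without Ko1 both were called higher, Eno2 at 0.50 (limma adjusted p = 0.0136) and Pkm at 0.47 (adjusted p = 0.0159).

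Ldhb, which favours the step from lactate to pyruvate, fell on 1 of its 4 probe sets, and its changes were below 0 on all 4. On 1455235_x_at the signals were 1626, 1868 and 1502 on knockout 67, 68 and Ko1 against 3010, 2938 and 3008 on heterozygous 75, 76 and 81. The heterozygous arrays were tightly grouped and all 3 knockout arrays were far below them. The mean was 1665 ± 186 against 2985 ± 40.6 (SD, n = 3), a ratio of 0.558 and a log2 change of -0.84 ± 0.15 (limma adjusted p = 0.0379; two-sided exact permutation p = 0.1). On 1416183_a_at the groups did not overlap either, at 1872 ± 103 against 2691 ± 188 (-0.52 ± 0.15, adjusted p = 0.1), and this probe set was called with centred arrays (-0.92, adjusted p = 0.0457) and without Ko1 (-0.48, adjusted p = 0.0177). On 1434499_a_at and 1448237_x_at the groups overlapped, with changes of -0.30 ± 0.20 and -0.10 ± 0.24, and on 1448237_x_at knockout 67 and 68 read 3137 and 3396 against 1777 on Ko1. RefSeq lists 1 pseudogene named after Ldhb. The call on 1455235_x_at held with quantile normalization (-1.04) and centred arrays (-1.24). Centring moved every change by the same -0.40, so it makes any fall larger and cannot test these Ldhb calls. The call on 1455235_x_at ended when any array but Ko1 was left out (-0.93 to -0.83, limma adjusted p from 0.106 to 0.207), when dim probe sets were kept in the fit (0.0952) and when the spread was not fitted to level (0.0748).

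**Figure D2:**
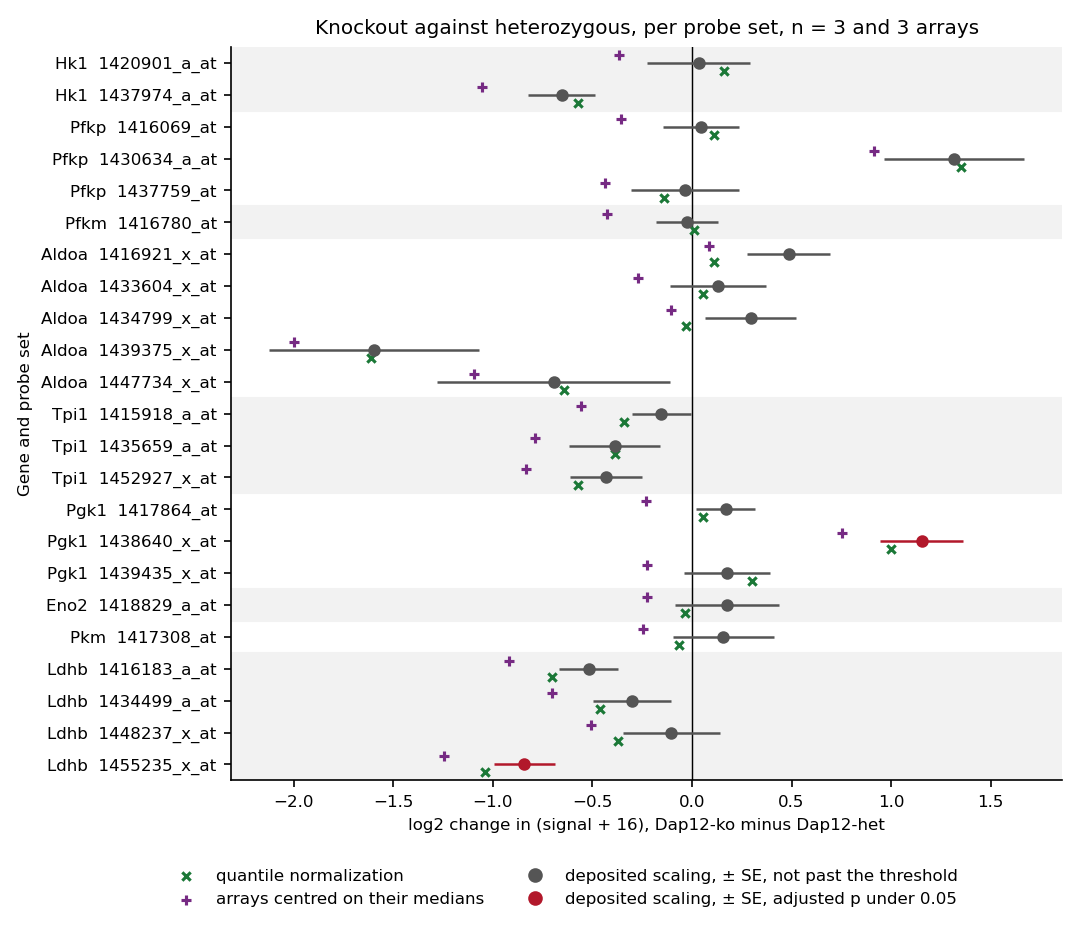
Log2 change of each probe set (knockout minus heterozygous, 3 arrays each), as points with SE for the deposited scaling, crosses for quantile normalization and plus signs for arrays centred on their medians. Pgk1 1438640_x_at (1.15) and Ldhb 1455235_x_at (-0.84), in red, passed the threshold; centring moved all points to the left, and 8 of the 23 changed sign.

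Scaling moved the group as a whole. When each array was centred on its median signal, the median change of all probe sets moved by -0.40 (log2), to -0.40, and that of the 23 went to -0.43. With centred arrays 2 of the 23 were called, both in Ldhb and both lower (2.58% of all). With quantile normalization 1 was called, again in Ldhb (0.555% of all).

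The 3 knockout arrays did not move together. Against the mean of the heterozygous arrays, the median of the 23 was 0.14 on knockout 67, 0.17 on 68 and -0.20 on Ko1. Each heterozygous array against the mean of the other 2 gave 0.11, -0.00 and -0.11. Differences of at least 1 on the log2 scale were seen for 4 probe sets on 67, 4 on 68 and 0 on Ko1, and for 0 on the heterozygous arrays. Over all probe sets tested the shares past 1 were 18.4%, 15.4% and 8.05% on the knockout arrays and 0.928% to 3.79% on the heterozygous arrays. Without knockout Ko1, 13 of the 23 were called, 6 higher and 7 lower, against 23.8% of all probe sets. Without Ko1 and heterozygous 81 the count was also 13, against 20.4% of all. Without knockout 67 and 68, which leaves Ko1 alone and assumes that it varies like the heterozygous arrays, 3 were called (Pgk1 1438640_x_at higher, Ldhb 1455235_x_at and 1448237_x_at lower), against 2.54% of all.

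**Figure D3:**
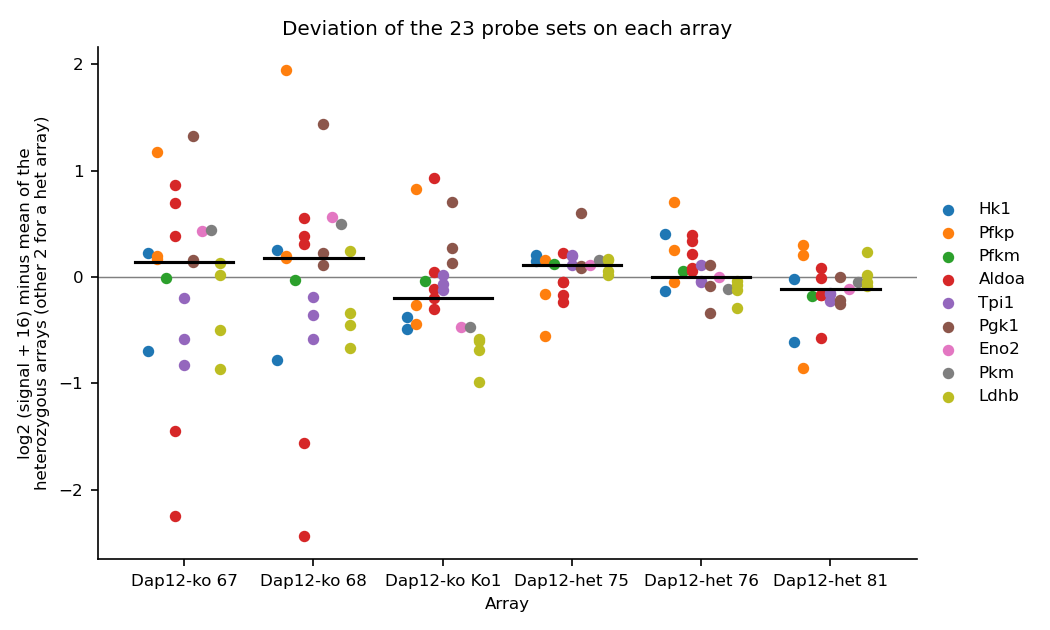
Difference of each of the 23 probe sets from the heterozygous mean on each array, on the log2 scale, coloured by gene, with the median as a black bar (a heterozygous array is set against the other 2). Knockout 67 and 68 share the same far points, with Aldoa at -2.24 and -2.43 and Pgk1 at 1.32 and 1.44, whereas no point on Ko1 reaches 1 in size.

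The mean standardized profile of the 9 brightest probe sets followed this split, highest on knockout 67 and 68 (0.48 and 0.44) and lowest on Ko1 (-0.84). Over the 6 arrays Pkm, Ldhb and Eno2 correlated with it at 0.951, 0.945 and 0.943, while Tpi1 and Hk1 were at -0.17 and -0.23. Each enzyme is itself part of the mean profile, which raises its correlation. For Ldhb the brightest probe set was 1448237_x_at, not the called 1455235_x_at. The 5 other genes most like the profile were Egln3 (0.997), Nmnat2 (0.995), Kcna2 (0.99), Zfp90 (0.989) and Lig1 (0.986), and 295 of 11437 genes reached 0.9. These are descriptions over 6 arrays that share the same scaling and split.

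Genes around the pathway were read on the brightest probe set of each, where 0.393% of 11446 genes were called higher and 1.04% lower. Among 17 other glycolytic enzymes 7 were tested, and 0 passed (limma; 2 at an unadjusted p under 0.05). The changes were above 0 for 2, and the median was -0.20. Aldoc, the aldolase of astrocytes, read 5422, 5651 and 5052 on knockout 67, 68 and Ko1 against 4157, 3941 and 3760 on heterozygous 75, 76 and 81, with no overlap (0.44 ± 0.13, limma adjusted p = 0.116, and -0.11 with quantile normalization), and it was called without Ko1 (0.49, adjusted p = 0.0096). Pfkl, the liver phosphofructokinase subunit, was at 425 ± 122 against 648 ± 51.5 (-0.63 ± 0.24, limma adjusted p = 0.18), and at -1.12 with Ko1 as the only knockout array. Its dimmer probe set 1450269_a_at read 528, 583 and 203 on knockout 67, 68 and Ko1. The heterozygous arrays 75, 76 and 81 read 372, 349 and 403 there (0.09 ± 0.36, limma adjusted p = 0.913). Of the regulators that make or remove fructose 2,6-bisphosphate, the activator of phosphofructokinase, 0 of 4 tested passed (limma; 0 at an unadjusted p under 0.05), with a median of -0.20. Pfkfb4 was at 58.8 ± 12.6 against 89.2 ± 11.5 (-0.50 ± 0.22, adjusted p = 0.244) and Pfkfb3 was at -0.29 ± 0.25 (adjusted p = 0.541).

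Transporters of glucose, lactate and pyruvate gave 0 calls among 5 tested (limma; 0 at an unadjusted p under 0.05), with a median of -0.04. Bsg, the chaperone of the lactate transporters, had a log2 change of 0.55 ± 0.27 (adjusted p = 0.281, and 0.82 with adjusted p = 0.0145 without Ko1), and Mpc1, a subunit of the mitochondrial pyruvate carrier, by 0.37 ± 0.19 (adjusted p = 0.304). Slc2a3, the glucose transporter of neurons, was level on its brightest probe set (-0.04 ± 0.21). A dimmer one, 1421924_at, chosen after its values were seen, rose, with 109, 157 and 48.1 on knockout 67, 68 and Ko1 against 7.41, 19 and 8.13 on heterozygous 75, 76 and 81 (2.05 ± 0.39, limma adjusted p = 0.042). That call ended with quantile normalization (0.0695), with 64 added (0.0531), with dim probe sets kept (0.0834), with the spread not fitted to level (0.0547), without 67 and 68 (1.24, at 0.114) and without any single array but Ko1 (adjusted p from 0.112 to 0.197). On 1455898_x_at the change was -0.79 ± 0.20 (adjusted p = 0.0756). Here too the probe sets of a gene disagreed.

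Of 10 genes of the pyruvate dehydrogenase complex, its kinases and its phosphatase, 0 passed (limma; 2 at an unadjusted p under 0.05), with a median of -0.18. Pdk4, a kinase that switches the complex off, read 52.7, 74.2 and 37.7 on the knockout arrays against 134, 121 and 116 on the heterozygous ones (-1.01 ± 0.24, limma adjusted p = 0.0689). Pdk1 was at -0.55 ± 0.19 (limma adjusted p = 0.149). Both were called lower without Ko1 (Pdk4 -0.82, limma adjusted p = 0.0262; Pdk1 -0.63, adjusted p = 0.0363), though Pdk1 was not without Ko1 and heterozygous 81 (adjusted p = 0.0563), and Pdk4 also with Ko1 as the only knockout array (-1.37, adjusted p = 0.04). On these probe sets both lay below the heterozygous range on all 3 knockout arrays. On the dimmer Pdk1 probe sets 1423747_a_at and 1423748_at the groups overlapped, with changes of 0.28 ± 0.24 and 0.08 ± 0.22. In the pentose phosphate pathway and side branches 8 genes were tested, of which 1 fell and 0 rose, with a median of -0.25. The one that fell was Tkt, transketolase, which returns pentoses to glycolysis, at 933, 1038 and 914 on knockout 67, 68 and Ko1 against 1599, 1665 and 1879 on heterozygous 75, 76 and 81 (-0.82 ± 0.16, adjusted p = 0.0429). Quantile normalization ended its call (-0.84, limma adjusted p = 0.0649), as did keeping dim probe sets, not fitting the spread to level and leaving out any array but Ko1 (adjusted p from 0.114 to 0.207). Pgd, the dehydrogenase that releases the pentose, was at 136 ± 58.1 against 295 ± 35.7 (-1.10 ± 0.29, limma adjusted p = 0.0888), and was called lower without Ko1 (-1.37, adjusted p = 0.0064). Of its dimmer probe sets, 1437380_x_at and 1438627_x_at were at -0.83 ± 0.25 and -0.73 ± 0.23. On 1423706_a_at the groups overlapped (0.07 ± 0.21). A dimmer probe set of Gpd1, 1416204_at, chosen after its values were seen, rose by 1.37 ± 0.24 (limma adjusted p = 0.0356), whereas the brightest was at 0.41 ± 0.39. Its call ended with quantile normalization (0.0791), centred arrays (0.0819), dim probe sets kept (0.0834) and any single array but Ko1 left out (adjusted p from 0.0645 to 0.182). Gpd1 makes glycerol 3-phosphate from a glycolytic intermediate.

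**Figure D4:**
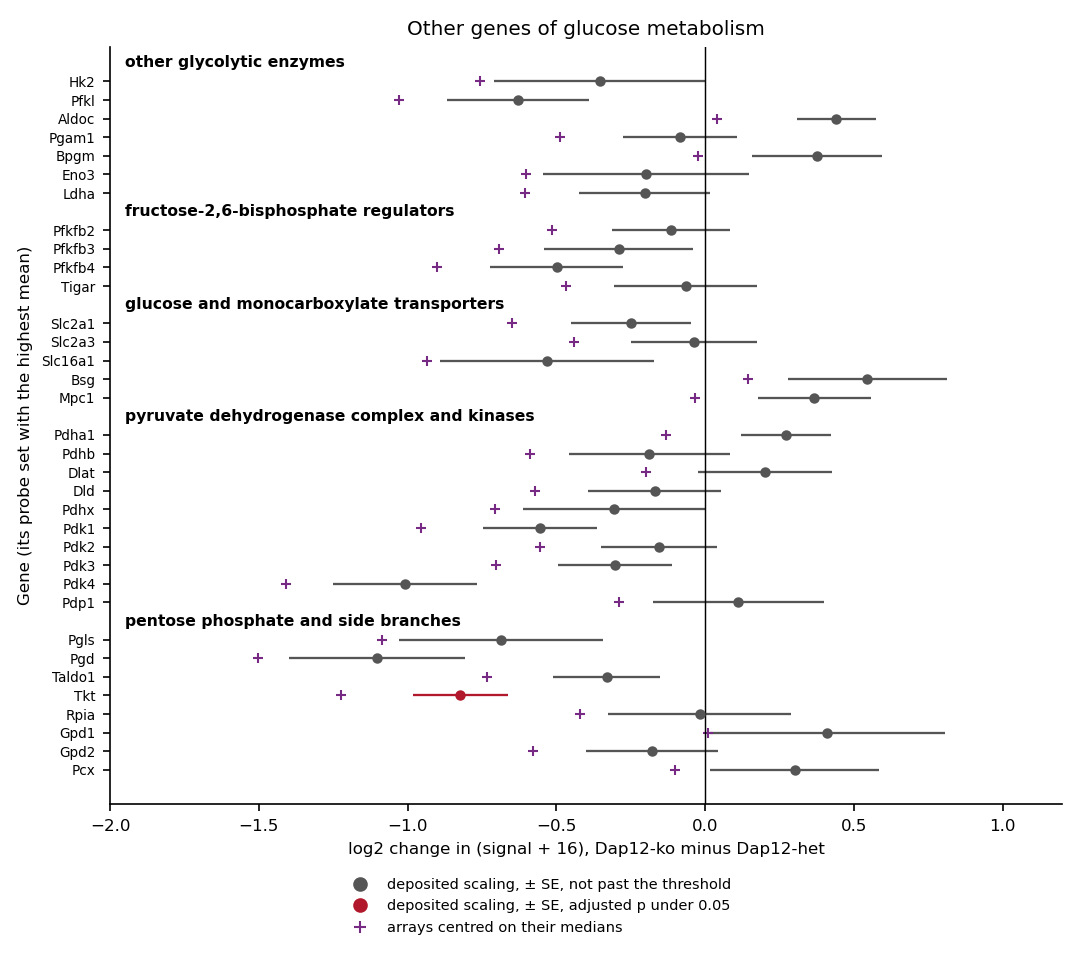
Log2 change (knockout minus heterozygous, 3 arrays each) of the brightest probe set of 34 further genes of glucose metabolism, with SE, grouped by list, and plus signs for arrays centred on their medians. Tkt (-0.82), in red, passed the threshold, and Pdk4 (-1.01) and Pgd (-1.10) had larger changes that did not pass.

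On their brightest probe sets 1 cell type marker, Mbp, was called. Over all tested marker probe sets, 2 of 14 were called higher for neurons, 6 of 17 for oligodendrocytes and 1 of 12 for microglia. For astrocytes it was 0 of 23, for endothelium 0 of 6 and for choroid plexus 0 of 8. The share over all probe sets was 1.32%. The neuronal calls were both in Syt1, as on 1421990_at (2.61, limma adjusted p = 0.0163, and 0.0193 with quantile normalization). Its brightest probe set was at 0.27 ± 0.19. The oligodendrocyte calls were all in Mbp and Mobp, so they are repeated probe sets of the same genes. Only Mobp 1450088_a_at kept its call with quantile normalization (limma adjusted p = 0.0351). The microglial call was on Cx3cr1 1450019_at, and quantile normalization ended it (limma adjusted p = 0.105). The part of cell types in the results above was not tested. For 6 neuronal markers, 0 of which passed on their brightest probe sets (limma; 3 at an unadjusted p under 0.05), the summed signal was 14706 to 19535 on knockout arrays and 11170 to 11919 on heterozygous arrays. For oligodendrocytes, with 5 of 6 markers measured and 1 higher (Mbp, 1.85, limma adjusted p = 0.0388, but 0.33 and 0.377 with quantile normalization), it was 23153 to 59768 against 16665 to 16902, lowest in the knockout group on Ko1. For 7 astrocyte markers it was 8402 to 9929 against 7175 to 9539, for 7 microglial markers 2311 to 2668 against 1603 to 1972, and for 4 endothelial markers 225 to 442 against 273 to 303. For 4 choroid plexus markers it was 620 to 17910 against 743 to 3730, with 16254 and 17910 on knockout 67 and 68. Every marker measured reached a signal of at least 10 on some array. The 3′ to 5′ signal ratio, a sign of RNA integrity, was 0.702 to 1.21 on the knockout and 0.997 to 1.42 on the heterozygous arrays for the Gapdh controls, and 1.76 to 2.33 against 1.59 to 2.12 for beta-actin.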

How the data were processed

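RNA was extracted, labelled with biotin by the one-cycle method and hybridised, per the labels' protocols. The signals came from GCOS, the scanner software, per the submitters' processing notes; its version and summary algorithm are not stated. The deposited values are linear signal intensities of 45101 probe sets, 64 of them controls, with a trimmed mean of 100 per array, so the authors' scaling was kept.

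Signals were transformed as log2(signal + 16), so that fold changes of dim probe sets are understated. The 22518 probe sets with a mean signal over the 6 arrays above the median (26.7) were fitted in R 4.3.3 by limma 3.58.1 (two-sided, genotype as the only term, variance moderated with an intensity trend) and adjusted over all of them by Benjamini-Hochberg. Errors are SD of signals (n = 3) and SE of log2 changes. The procedure was tested on simulated data for this comparison over 22518 probe sets: of 100 changed by 2 on the log2 scale 64 were called, and of 100 changed by 3, 83 were. The number of arrays limits the precision.

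Named genes were every probe set of the enzymes, Tyrobp, and in each pathway list the genes called and the 2 with the smallest p, on the brightest probe set; likeness was the Pearson correlation with the mean profile of the enzymes. The members and lists were chosen with earlier results of these data known. The platform annotation gave 1 symbol to 34945 probe sets, several to 932 and none to 9160; names come from the first kind. Alternatives changed the normalization, centring, added constant, filter, spread model and arrays.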

Additional observations from a re-analysis of the deposited data

Results flagged for a closer look

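Gapdh, the glycolytic dehydrogenase, is measured with 1 symbol only by control probe sets, which stood outside the comparisons and whose signals did not overlap between the groups, with all knockout arrays above. The mean signal was 10584 against 4168 for the 5′ control, 7249 against 4493 for the middle control and 10025 against 4750 for the 3′ control (n = 3 each, not tested with the other probe sets). All knockout arrays also lay above for 15.1% of the probe sets tested. The beta-actin 3′ control read 8357 to 12443 on knockout against 5253 to 5940 on heterozygous arrays. Its 5′ control read 3783 to 5649 against 2631 to 3744, while the middle one overlapped (4049 to 5687 against 3323 to 4099). The spiked bacterial and phage controls were higher on the knockout arrays too, and their part in the Gapdh difference was not tested.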

How the results depend on the processing

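The count over all probe sets, 466, was 125 with quantile normalization, 124 without a filter on level, 172 without a trend of the spread, 0 to 5358 when 1 array was left out (0 without 67, 68, 75 or 81, with 2867 to 3956 at an unadjusted p under 0.05 by limma) and, an alternative chosen after seeing the data, 4592 without Ko1 and heterozygous 81. The enzymes' count, 2, was 1 with quantile normalization, 0 without a filter and 0 without a trend (limma; 6 at an unadjusted p under 0.05 in each), 0 to 13 when 1 array was left out (13 without Ko1), and 13 without Ko1 and heterozygous 81. With 64 added, the dimmest 75% removed or, added after seeing the data, a filter on the mean log2 value, it was 2. Tyrobp lost its call with quantile normalization (-1.81), without a filter or a trend (-1.68 each) and without any array but Ko1 (-1.94 to -1.38).

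Centring moved every change by the same -0.40, so that changes between 0 and 0.40 took the other sign; for the other alternatives the cause was not tested. With quantile normalization these were Pfkm (0.0081), Aldoa 1434799_x_at (-0.028), Eno2 (-0.034), Pkm (-0.067) and Aldoc (-0.11). With centred arrays they were Hk1 1420901_a_at (-0.37), Pfkp 1416069_at (-0.36), Aldoa 1433604_x_at (-0.27) and 1434799_x_at (-0.11), Pgk1 1417864_at and 1439435_x_at (-0.23 each), Eno2 (-0.23), Pkm (-0.24) and Mpc1 (-0.034). Without knockout 67 and 68 they were Hk1 1420901_a_at (-0.38), Pfkp 1416069_at (-0.26), Aldoa 1433604_x_at (-0.30), 1434799_x_at (-0.20) and 1447734_x_at (0.93), Tpi1 1435659_a_at (0.022), Eno2 (-0.47), Pkm (-0.47) and Bsg (-0.0087). Without Ko1 and heterozygous 81 they were Pfkp 1437759_at (0.27) and Ldhb 1448237_x_at (0.16). Leaving out 1 array gave -0.17 to 0.24 for Hk1 1420901_a_at, -0.031 to 0.20 and -0.22 to 0.17 for Pfkp 1416069_at and 1437759_at, -0.084 to 0.017 for Pfkm, -0.059 to 0.35 for Aldoa 1433604_x_at, -0.018 to 0.50 for Eno2, -0.012 to 0.47 for Pkm and -0.28 to 0.19 for Ldhb 1448237_x_at. No paired analysis was possible because the groups share no replicate numbers.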
